A study of Mus musculus with 6 samples.

Results

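Deep peaks that a single mouse's list held were gathered from peak lists of thyroid hormone receptor α (TRα) in mouse gastrocnemius, the large calf muscle. Peaks of the 6 lists that overlapped by at least 1 bp were merged into 458111 regions. Members were the regions on chromosomes 1 to 19 with peaks of exactly 1 list, chosen by a pileup of at least 7 and a local background under 2 times the lowest background of that list. Pileup is the number of sequenced fragments stacked at the summit. The local background is the number that the peak caller expected there, with the mouse's own input DNA as control. The rule gave 18549 members among 407174 single-list autosomal regions, and every member held 1 peak. Because pileup, fold, q and occurrence in 1 list chose the members or follow from what chose them, these values are described and not tested. The exceptions are the number of members per mouse and their shares, which were set against age, a value the rule did not use.

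The study precipitated chromatin of 6 mice with an antibody to TRα, 2 each aged 6, 15 and 21 months, and asked how occupancy differed between ages. All 6 samples were bulk gastrocnemius tissue, and the titles call the 3 ages youth, mid and old. No treatment or modified allele is named for any of the groups, and the labels used here name neither strain nor sex. Such tissue holds fibres, vessels, nerve and immune cells. Peaks bound in few cells and peaks bound weakly in many therefore cannot be told apart. Replicate numbers name mice within an age, and p-values describe the spread between these 6 samples.

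TRα is a nuclear receptor that binds DNA with and without its ligand, triiodothyronine, mostly as a heterodimer with retinoid X receptors. Without hormone it recruits corepressors to its response elements, and with hormone it recruits coactivators. In skeletal muscle it is the main thyroid hormone receptor and takes part in setting fibre type, contraction speed and energy use. In peak lists, recurrence between animals is the usual first check on a single peak. Members are by construction peaks of at least 7 fragments that did not recur in these 6 lists.

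The number of members differed widely between mice. Replicate 1 at 6 months gave 11193 members and replicate 2 at 6 months gave 1068. At 15 months there were 1208 in replicate 1 and 1749 in replicate 2, and at 21 months there were 2104 and 1227. Replicate 1 at 6 months alone held 60.3% of all members, and the other 5 mice held 7356 together. As a share of the single-list autosomal regions of each mouse, members made up 17.0% and 1.22% in the 6-month mice, 7.34% in replicate 2 and 1.45% in replicate 1 in the 15-month mice, and 2.80% and 1.73% in the 21-month mice. These shares are the background rate of the rule itself, and nothing about the members can be read from them.

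The lowest local background, which stands in for the sequencing depth of a library, moved with these counts. It was 1.196 fragments in replicate 1 and 0.633 in replicate 2 in the 6-month mice, 0.695 and 0.824 in the 15-month mice, and 0.814 and 0.711 in the 21-month mice. Replicate 1 at 6 months was thus the deepest library by this measure, and a pileup of 7 lay less far above its background than in any other mouse. With the pileup minimum scaled to the lowest background of each list, replicate 1 at 6 months needed 11 fragments and kept 69 members. Replicate 2 at 6 months, which then needed 6, had 4276, so the order of the mice turned. The other 4 mice had 1208, 407, 534 and 1227 members under this setting, in the order of age and replicate.

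Significance of single peaks gave another order again. The deposited q, the caller's p adjusted for the number of positions tested, was at most 0.05 for 481 members of replicate 1 and 847 of replicate 2 at 6 months. It was so for 862 and 691 members at 15 months and for 1305 and 818 at 21 months, 5004 members in all. In replicate 1 at 6 months this was 4.30% of its members, beside 1.13% of all autosomal peaks of that list. In replicate 2 at 6 months it was 79.3% of members, beside 2.99% of all peaks. At 15 months the shares were 71.4% beside 1.62% in replicate 1 and 39.5% beside 4.17% in replicate 2. At 21 months they were 62.0% beside 2.44% and 66.7% beside 1.90%. The rule set a floor on the height of members, so nothing about the members is read from these shares. Most members of replicate 1 at 6 months, and of replicate 2 at 15 months, were thus deep in fragments without reaching this q.

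**Figure D1:**
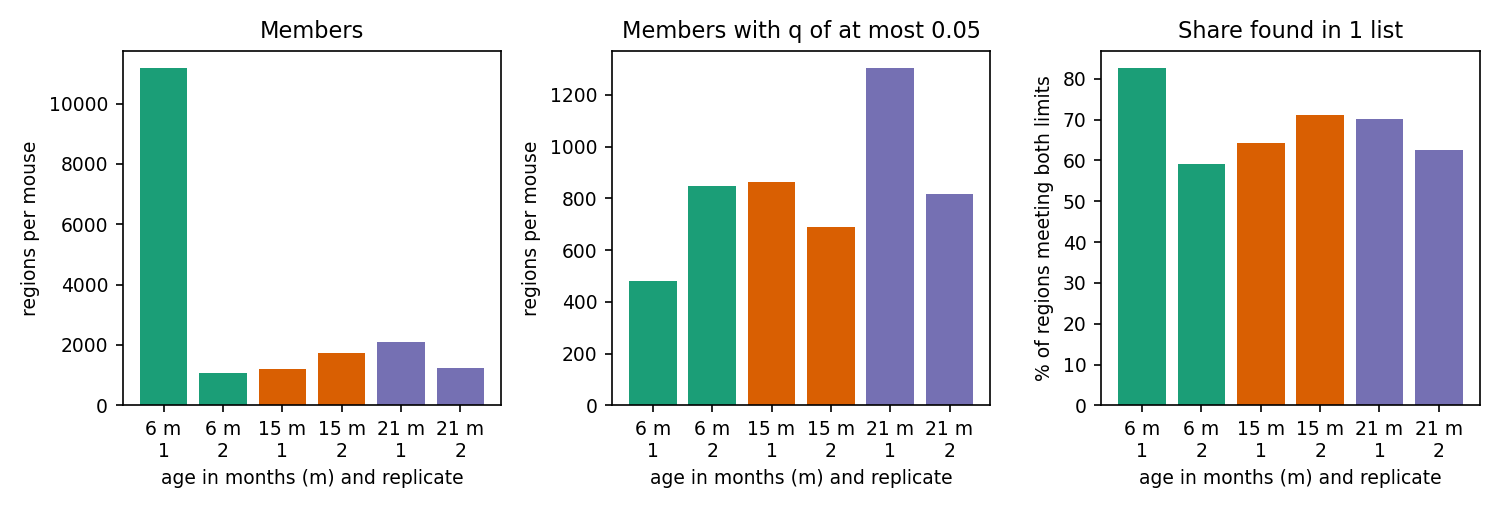
Bars give, for each of the 6 mice, the number of members, the number of members with q of at most 0.05, and the percentage of the mouse's autosomal regions meeting both limits that were found in its list alone. Colours mark the 3 ages. Replicate 1 at 6 months stands highest in the first panel with 11193 members, lowest in the second with 481 and highest in the third with 82.8%.

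Member counts did not follow age beyond the spread between mice of one age. The mean of the 2 mice aged 6 months was 6130.5 ± 7159 (SD, n = 2). It was 1478.5 ± 383 (SD, n = 2) for those aged 15 months and 1665.5 ± 620 (SD, n = 2) for those aged 21 months. Number and age had a Pearson's r of -0.53 (two-sided exact permutation p = 0.4, adjusted 0.6 over 3 measures) and a Spearman's rho of 0.12 (exact permutation p = 0.844, adjusted 1). With the 2 youngest mice left out, as those farthest from the middle age, r was 0.25. Without replicate 1 at 6 months r turned to 0.54, so its sign rested on that mouse. Members as a percentage of single-list regions had an r of -0.50 (exact permutation p = 0.367, adjusted 0.6) and a rho of 0 (exact permutation p = 1, adjusted 1), and r was -0.45 with the youngest mice left out. Single pairs of ages were not tested, since the exact permutation test of 2 mice against 2 gives no p under 0.333. Member counts also moved with the lowest local background of each list, so these tests cannot tell age from sequencing depth.

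At the pileup minimum of 7, more of each mouse's qualifying regions were in 1 list than in several. Without the pileup and background limits, 407174 of the 466243 autosomal regions, counted once per mouse and region, were in 1 list. A majority in 1 list was thus not particular to deep regions. Of the autosomal regions of a mouse that met both limits, 82.8% and 59.0% were in no other list in the 6-month mice, 64.4% and 71.2% in the 15-month mice, and 70.2% and 62.6% in the 21-month mice. The remaining regions, called recurrent deep regions here, numbered 2332 and 741, 668 and 706, and 894 and 734 in the same order. The share in 1 list had an r with age of -0.24 (exact permutation p = 0.644, adjusted 0.644) and a rho of -0.12 (exact permutation p = 0.844, adjusted 1). At a minimum of 8 the share in 1 list fell to 41.7 to 48.0% in 3 mice and was 52.5 to 77.5% in the other 3. At a minimum of 10 the share stayed at 53.9% for replicate 1 at 6 months, while the other 5 mice had 18.9 to 34.6%. The r with age at the minimum of 7 was -0.20 with the youngest mice left out and 0.48 without replicate 1 at 6 months. At that minimum the mouse with the highest lowest-background value had the highest share, and the mouse with the smallest value had the lowest share. The r therefore cannot tell age from sequencing depth.

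Most members lay at the floor of the rule. A pileup of exactly 7 was found for 13243 members, or 71.4%, and 8 for another 3637. The median pileup was 7 in every mouse, and 87 members had more than 20 fragments. The deposited fold, the pileup over the local background with 1 added to both, had medians of 3.56 and 4.54 in the 6-month mice, 4.46 and 4.21 in the 15-month mice, and 4.29 and 4.29 in the 21-month mice. At a fixed pileup the fold falls as the background rises, and the lowest median belonged to the mouse with the highest background. Just outside the pileup limit, at exactly 6 fragments with the same background limit, lay 18746 and 3208 single-list regions in the 6-month mice, 4358 and 4950 in the 15-month mice, and 6561 and 4070 in the 21-month mice. At the background limit, the nearest members had 1.95 to 2.00 times the lowest background of their list, with pileups of 7 to 9 and folds of 2.70 to 4.19. The nearest single-list regions above the limit had 2.00 to 2.03 times, with pileups of 7 to 11 and folds of 3.02 to 4.91.

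Among qualifying regions, the lowest pileups were more often single-list than the highest in every mouse. The share in 1 list was 71.9 to 85.2% at a pileup of 7 over the 6 mice, 55.1 to 82.0% at 8, and 13.3 to 28.8% at 12 or more. Between these the fall was not steady, and from 10 to 11 fragments the share was higher in 3 of the mice, replicate 2 at 6 months (31.9 to 43.2%), replicate 1 at 15 months (44 to 65.7%) and replicate 2 at 21 months (34.5 to 39.4%). By fold, the share was 70.2 to 79.4% from 4 to 5, 41.4 to 56.3% from 5 to 7, 18.2 to 40.5% from 7 to 10, and 8.33 to 33.3% from 10 to 20. From 3 to 4 it was 84.2% in replicate 1 at 6 months, higher than that mouse had from 4 to 5. The other 5 mice had 62.8 to 72.2% there, each lower than its own share from 4 to 5. From a fold of 50 upward, 8 of 157 regions over the 6 mice were single-list, or 5.10%. Height entered the rule and also every list's own p limit, so these shares are a description with no test. The class from 20 to 50 held 7 to 56 regions per mouse.

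**Figure D2:**
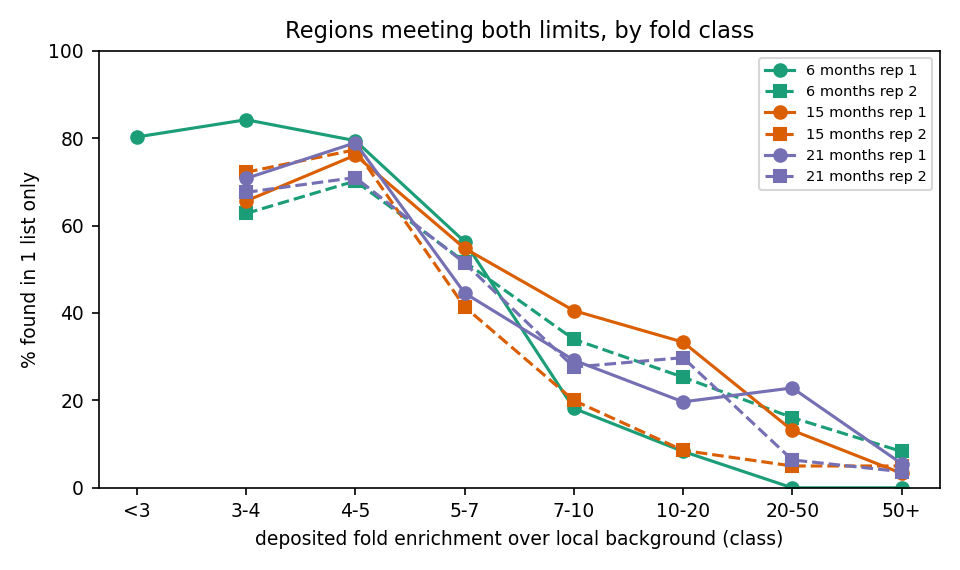
Each line is 1 mouse, and each point is the percentage of its autosomal regions meeting both limits that no other list held, by class of deposited fold. In each mouse the share at folds of 4 to 5 (70.2 to 79.4%) is above that at 5 to 7 (41.4 to 56.3%), and replicate 1 at 6 months has no member from a fold of 20 upward.

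Among the members, 116 had a fold of at least 10, and they came from every mouse in very uneven numbers. Replicate 1 at 6 months had 1 and replicate 2 had 32. At 15 months there were 38 and 5, and at 21 months 22 and 18. The recurrent deep regions with such a fold numbered 26 and 139, 126 and 70, and 110 and 103. The 2 mice with the fewest strong members were also the 2 with the highest lowest-background values. Of these, replicate 2 at 15 months had 0.824, close to the 0.814 of replicate 1 at 21 months, which had 22 strong members.

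The highest member of each mouse was taken as an example of what a strong single-mouse peak looks like. Positions are given on GRCm39, counted from 1. In replicate 2 at 21 months a peak at chr1:153929082-153929464 had 202 fragments, a fold of 104 and a −log10 q of 381, and the nearest peak of any other mouse was 564 bp away. In replicate 2 at 6 months a peak at chr5:131548570-131549240 had 169 fragments, a fold of 95.7 and a −log10 q of 321, with the nearest other mouse's peak at 4528 bp. These 2 members had the highest −log10 q of all, and the other 5 mice had no listed peak overlapping either.

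In replicate 1 at 21 months the highest member, at chr5:61649603-61650053, had 153 fragments and a fold of 66.7, with a −log10 q of 249. Replicate 1 at 15 months reached 137 fragments and a fold of 74.6 at chr2:16687887-16688120. Replicate 2 at 15 months reached 130 fragments and a fold of 71.8 at chr2:124975298-124975624. These 5 mice thus each had a member above 100 fragments, although peaks of 3 or 4 fragments were enough to enter a list. In replicate 1 at 6 months the highest member, at chr11:58641893-58642357, had 37 fragments and a fold of 16.9, and no other mouse had a peak within 10334 bp. No annotation text accompanied any of the 116 strong members, so none could be assigned to a gene, and the annotation of these positions was not analysed here.

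Strong members had their summits close to one edge of the peak. The distance of the summit from the peak centre was measured as a percentage of peak width, on which 0 is the centre and 50 the edge. Its mean over members with a fold of at least 10 was 31.2 and 30.6 in the 6-month mice, 35.4 and 37.3 in the 15-month mice, and 31.2 and 34.3 in the 21-month mice. Recurrent deep regions with such a fold had 17.9 and 22.8, 23.8 and 20.2, and 22.0 and 21.0, lower in all 6 mice. The value of replicate 1 at 6 months rests on 1 member and that of replicate 2 at 15 months on 5. In base pairs, the summit lay under 50 bp from the nearer edge in 71 of the 116 strong members, or 61.2%, against 136 of 574 strong recurrent peaks, or 23.7%. Among all members this share was 9.81%. The median distance to the nearer edge in strong members was 40 bp in replicate 2 at 6 months and 29 bp in replicate 1 at 15 months. It was 35 bp in replicate 2 at 15 months, and 32.5 and 43 bp at 21 months. The single strong member of replicate 1 at 6 months had 87 bp, within the range of strong recurrent peaks. Those had medians of 80.5 to 99.5 bp in the 6 mice. Widths were alike in the mice with more than 5 strong members, with medians of 310.5 to 350.5 bp in strong members and 320 to 326.5 bp in strong recurrent peaks. The comparison was chosen after its values were seen and has no test.

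**Figure D3:**
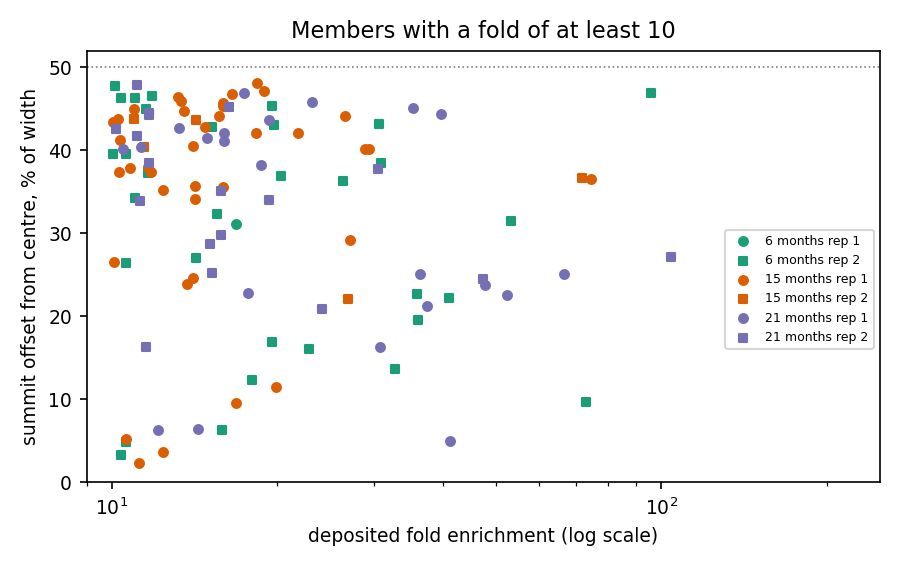
Each point is 1 of the 116 members with a deposited fold of at least 10, by fold on a log axis and by the distance of its summit from the peak centre as a percentage of width; the dotted line at 50 is the peak edge. Many points lie near the edge, among them the peak of fold 95.7 in replicate 2 at 6 months at 46.9%.

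Over all members the summit lay nearer the centre than in shallow regions, the reverse of the strong members. Shallow regions are single-list autosomal regions under the same background limit with no peak of 7 or more fragments. The mean offset of members was 15.7 and 16.7% of width in the 6-month mice, 17.2 and 14.5% in the 15-month mice, and 15.8 and 16.1% in the 21-month mice. Shallow regions had 20.9 and 18.9%, 19.95 and 20.3%, and 20.3 and 20.1%. The groups did not overlap, and the mean difference over mice was -4.06 ± 1.41 percentage points (SD, n = 6; lower in 6 of 6 mice; two-sided exact sign-flip p = 0.03125, the smallest 6 mice allow, adjusted 0.0781 over 5 measures). It did not pass the adjusted threshold of 0.05, which this test can pass only if at least 4 of the 5 measures reach the smallest p. The classes differ by the pileup limit itself, and the offset is divided by width, which moves with pileup. This test therefore cannot tell membership from pileup. The sign turned to 6.13 for members with a pileup of at least 10 and to 10.3 for those with a −log10 q of at least 5. Recurrent deep peaks had mean offsets of 17.3 and 18.8%, 20.1 and 17.4%, and 18.3 and 18.4%. These were above members in every mouse and below shallow regions in all but replicate 1 at 15 months. An offset lower than in shallow regions was thus not particular to members.

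Member peaks were wider than shallow ones. The median width over all members was 290 bp, with a range of 194 to 1785 bp, and 39 exceeded 1 kb. By mouse it was 290 and 309 bp in the 6-month mice, 295.5 and 270 bp in the 15-month mice, and 291 and 292 bp in the 21-month mice. Shallow regions had 271 and 247 bp, 245 and 245 bp, and 257 and 253 bp. Recurrent deep peaks were wider than members in each mouse, with medians from 287 to 332 bp. Width moves with pileup, which the rule used, so it was not tested.

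Although members overlapped no peak of another mouse, they lay somewhat nearer to such peaks than shallow regions did. A peak of another mouse lay within 1 kb of 31.5% of members in replicate 1 and 35.8% in replicate 2 at 6 months. In the 15-month mice it was 33.9 and 37.5%, and in the 21-month mice 33.5 and 36.3%. Shallow regions had 28.6 and 27.7%, 27.3 and 32.1%, and 27.8 and 28.6%. Recurrent deep regions, counting only peaks of other mice that did not overlap them, had 41.4 and 37.2%, 37.0 and 45.5%, and 40.6 and 42.9%. These were above the members in every mouse, so the trait was not particular to members. Members were higher than shallow regions in 6 of 6 mice, by 6.07 ± 1.89 percentage points (SD, n = 6; differences of 2.93 to 8.06; two-sided exact sign-flip p = 0.03125, adjusted 0.0781). The median gap to the nearest other mouse's peak was 1893 and 1732 bp for members in the 6-month mice, 1801 and 1522 bp in the 15-month mice, and 1789 and 1573 bp in the 21-month mice. For shallow regions it was 2094 and 2200 bp, 2212 and 1826.5 bp, and 2161 and 2113 bp. The difference fell to 3.99 points with summit-to-summit distance, where peak width does not enter, and turned to -1.19 for members with a −log10 q of at least 5. It was 4.17 points with a background limit of 1.5 times and 9.08 with 3 times, so it moved with a limit of the rule. The median background of members was 1.05 to 1.23 times the lowest over the mice, and that of shallow regions 1.00 to 1.09 times. Members had the higher median in each mouse, and the part of background in this nearness was not tested. Of the 116 members with a fold of at least 10, 28 had another mouse's peak within 1 kb.

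**Figure D4:**
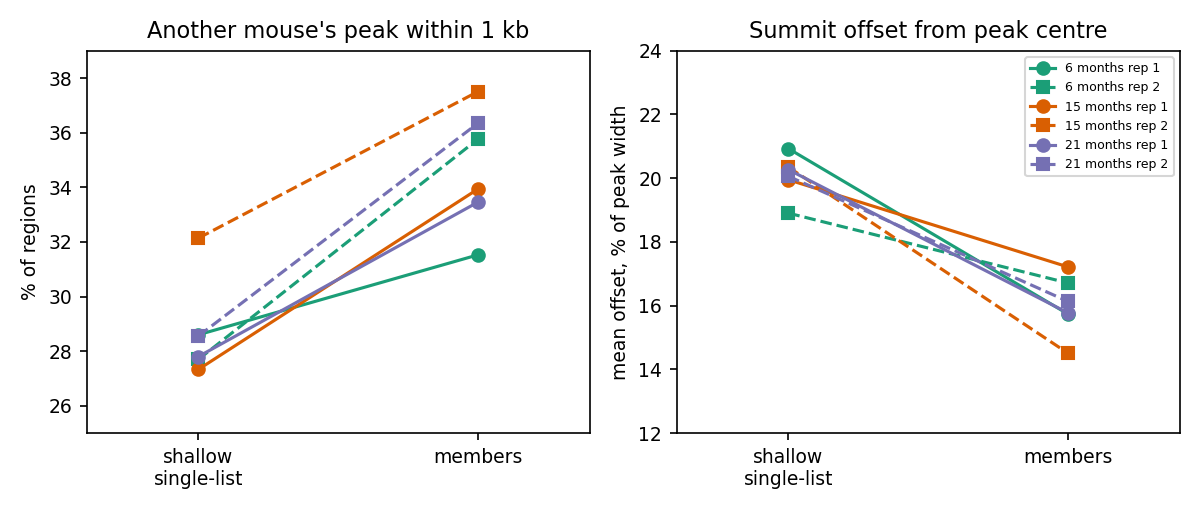
Lines join the value of shallow single-list regions with that of members in each of the 6 mice, for the percentage with another mouse's peak within 1 kb (left) and for the mean summit offset as a percentage of peak width (right); both axes start above 0. Members are higher than shallow regions in 6 of 6 mice on the left and lower in 6 of 6 on the right.

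Spacing within a list separated members from shallow regions less. The share with another region of the same mouse within 10 kb was higher in members in 4 of 6 mice, by 1.73 ± 2.24 percentage points on average (SD, n = 6; two-sided exact sign-flip p = 0.125, adjusted 0.208). The difference was thus smaller than its spread between mice.

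Some members lay beside members of other mice. Within 1 kb there were 169 pairs of members of different mice, which involved 336 members, and both peaks had q of at most 0.05 in 16 pairs. Mice of the same age made 25 of these pairs and mice of different ages 144. Relative to the number of possible pairs, the 3 same-age combinations had 0.947 to 3.49 close pairs per 1000000, and the 12 different-age combinations 1.10 to 6.10, so the ranges overlapped. The same count was not made for shallow regions. The median gap was 467 bp. A pair on chromosome 3 may serve as an example, with a member of replicate 1 at 6 months at chr3:106208424-106208854 (fold 5.21) and one of replicate 1 at 15 months at chr3:106208907-106209265 (fold 5.36), 52 bp apart.

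Members were spread over the whole genome. Of the windows of 1 Mb on the autosomes, 2408 held at least 1 member, with a median of 7, and 50 held members of all 6 mice. The densest, on chromosome 5 from 94 to 95 Mb, held 39, of which 15 and 8 came from the mice of 6 months, 2 and 4 from 15 months, and 7 and 3 from 21 months. The next, on chromosome 4 from 61 to 62 Mb, held 38, with 16 and 1, 1 and 8, and 5 and 7 in the same order. These windows held 321 and 240 single-list regions in all, so 12.1% and 15.8% of their single-list regions were members. All autosomes together had 18549 members among 407174 single-list regions. The windows were picked for their number of members, so nothing is read from their shares. Outside the autosomes, 267 single-list regions on X, 277 on Y and 105 on scaffolds met the same limits and are not members.

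On chromosomes 1, 2 and 3 a larger share of single-list regions were members than on chromosomes 4 to 19, in 6 of 6 mice. At 6 months the shares were 17.7 against 16.8% and 1.71 against 1.07%. At 15 months they were 1.78 against 1.35% and 7.96 against 7.15%, and at 21 months 3.24 against 2.67% and 2.18 against 1.60%. The ratio was near 1 in replicate 1 at 6 months and largest in replicate 2 at 6 months. With the 6 mice pooled, chromosome 4 had 4.91%, close to the 4.97, 4.92 and 5.12% of chromosomes 1 to 3. Without replicate 1 at 6 months it had 2.36%, against 2.56 to 2.65% on these 3. By mouse, chromosome 4 was above the mouse's share over all autosomes except in replicate 2 at 6 months (0.892 against 1.22%). Chromosome 1 was above it except in replicate 2 at 15 months (7.17 against 7.34%). The higher share thus did not stop clearly at chromosome 3. Peaks with a background of at least 2 times the lowest, which the rule leaves out, were also commoner on chromosomes 1 to 3, with 5.01 to 11.3% of peaks per mouse against 1.53 to 3.29% elsewhere. Their part in the result was not tested. The split of the chromosomes was made after the values were seen and has no test.

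**Figure D5:**
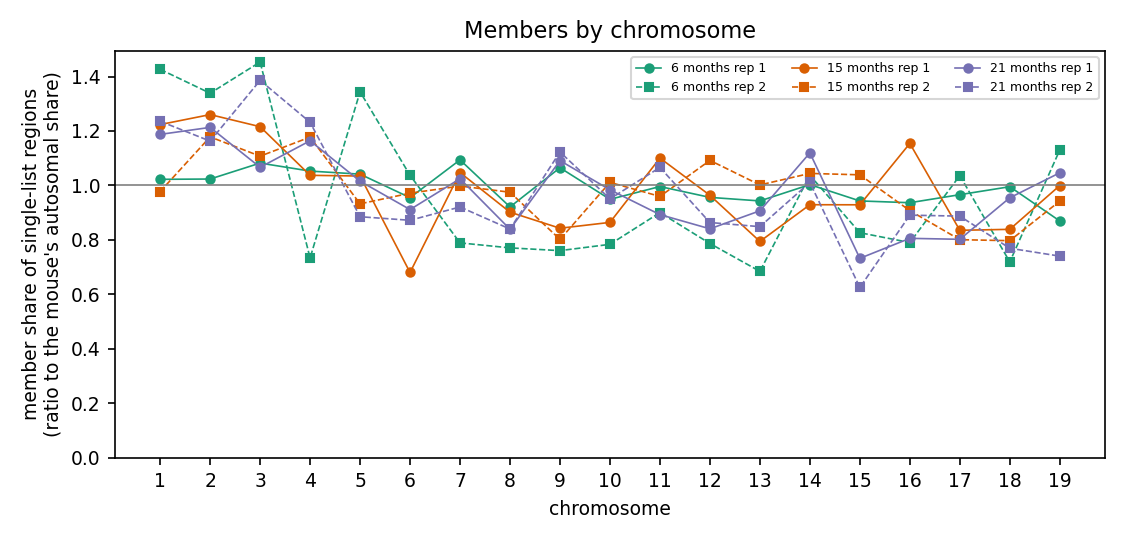
For each of the 6 mice, the share of single-list regions that are members on each of chromosomes 1 to 19 is divided by the mouse's share over all autosomes, so that 1 (grey line) is the mouse's own average. The lines lie mostly above 1 on chromosomes 1 to 3, where the member share was higher than on chromosomes 4 to 19 in 6 of 6 mice. On chromosome 4 they also lie above 1, except for replicate 2 at 6 months.

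Genes could be named for few members. The deposited tables carried annotation text for 140 members, or 0.755%, beside 0.860% of all single-list autosomal regions. The share of members with text was 0.831 and 1.22% in the 6-month mice, 0.579 and 0.572% in the 15-month mice, and 0.475 and 0.570% in the 21-month mice. Shallow regions had 0.787 to 0.966% in the 6 mice. Members differed from shallow regions by -0.166 ± 0.298 percentage points (SD, n = 6; higher in 2 of 6 mice; two-sided exact sign-flip p = 0.3125, adjusted 0.391). They differed from recurrent deep regions by -0.178 ± 0.505 points (SD, n = 6; higher in 2 of 6 mice; two-sided exact sign-flip p = 0.4375, adjusted 0.4375). Both differences were smaller than their spread.

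The text named 101 genes for 133 members, out of 387 genes named anywhere on the autosomes. Of all named autosomal regions 3.54% were members, beside 3.98% of all autosomal regions. Replicate 1 at 6 months gave 89 of the 133 named members, and 61 of the 101 genes were named by its members alone. A q of at most 0.05 was reached by 35 named members, of which 4 came from that mouse. The median fold was 3.64 both for named members and for all members. Only genes with long annotation text can be named, and the distance from a gene to its peak was not given, so a name does not place a peak in a promoter. With 78 of the genes having a single member each, the values below are single peaks with no replicate.

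Genes of thyroid hormone action had 6 members, all from replicate 1 at 6 months, the mouse that gave 89 of the 133 named members. Of 24 signalling genes, 5 were named and 2 had a member. Rxra encodes the retinoid X receptor that pairs with TRα, and its member at chr2:27562486-27562748 had 7 fragments and a fold of 3.55. Crebbp, a histone acetyltransferase that nuclear receptors recruit as a coactivator, had a member at chr16:4031050-4031304, also with 7 fragments and a fold of 3.55. Of 22 response genes, 4 were named and 2 had members. Ppargc1a, a coactivator of mitochondrial biogenesis, had members with folds of 2.78 and 3.64, and Foxo3, a transcription factor of muscle atrophy and stress resistance, had members with folds of 3.44 and 3.99. All 6 peaks missed the q limit of 0.05. They made up 5.13% of the 39 named regions of signalling genes and 6.45% of the 62 of response genes, beside 3.98% of all autosomal regions.

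Smad4 had the highest fold among the named genes. It encodes the common partner of the receptor-regulated SMADs, through which TGF-β, activin and bone morphogenetic proteins act on transcription. Replicate 1 at 15 months had a member at chr18:73839269-73839718 with 15 fragments, a fold of 9.44 and a −log10 q of 11.6. Replicate 2 at 21 months had another at chr18:73824212-73824668 with 7 fragments, a fold of 3.49 and a −log10 q of 0.551. These were the only 2 peaks that the annotation text of the 6 lists assigned to Smad4, and they lay at different positions. Smad7, the inhibitory SMAD, had a member in replicate 1 at 15 months with 7 fragments and a fold of 4.68. Bmp7, a ligand of the pathway, had one in replicate 1 at 21 months with 7 fragments and a fold of 4.29. Thus 3 of 17 named TGF-β pathway genes had members, 4 in all and none from replicate 1 at 6 months. Of their 173 named regions, 2.31% were members.

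Inflammation and NF-κB genes had members for 7 of 12 named genes, 9 members in all with 4 of q at most 0.05. These were 4.97% of the 181 named regions of the list. Jak1, a kinase of cytokine receptors, had a member in replicate 2 at 6 months with 8 fragments and a fold of 4.70. Jak2, its relative, had one in replicate 1 at 21 months with 7 fragments and a fold of 4.27, and Tlr2, a receptor for bacterial lipoproteins, one in replicate 2 at 15 months with 9 fragments and a fold of 4.26. Nfkb1, the precursor of the p50 subunit, had members in both mice of 6 months, with folds of 3.48 in replicate 1 and 4.18 in replicate 2, within a span of 49075 bp. Tlr4, the lipopolysaccharide receptor, had 2 members, both in replicate 1 at 6 months with a fold of 3.56. Ccr4, a chemokine receptor, had 1 member in that mouse, with a fold of 3.99. Ikbkb, a kinase that activates NF-κB, had the lowest fold of the list's genes, 2.78. It and Wnt4 below rank after the 30 genes that the naming rule takes.

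Wnt genes had 11 members over 5 of 15 named genes, and 10 of the 11 came from replicate 1 at 6 months. They were 5.42% of the 203 named regions of the list. Fzd1, a Frizzled receptor, had 6 members over 118959 bp, the most of any gene, 5 in replicate 1 at 6 months with folds of 2.78 to 4.55 and 1 in replicate 2 at 21 months with a fold of 4.63. Wnt3 and Wnt7a, which are ligands, and Sfrp1, a secreted Wnt antagonist, had folds of 3.42 to 3.59 at their highest. Wnt4, another ligand, had the lowest of the list's genes, 3.08. Fzd1 also had 62 peaks over the 6 lists, so its members were a small part of them.

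Insulin and IGF genes had members for 4 of 17 named genes. Igf1r, the receptor of insulin-like growth factor 1, had members in replicate 1 at 6 months (8 fragments, fold 4.10) and replicate 1 at 15 months (7 fragments, fold 3.52), at different positions. Ins1, an insulin gene, had 3 members over 162352 bp, the highest with a fold of 4.41 in replicate 1 at 21 months. Gsk3b, a kinase that insulin signalling inhibits, had a single member with a fold of 3.55. Of the 8 members of this list, 1 had q of at most 0.05, and 3.83% of its 209 named regions were members.

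The other lists had few members. Kdr, the main vascular endothelial growth factor receptor and a marker of endothelial cells, had a member in replicate 1 at 6 months with 10 fragments, a fold of 5.01 and a −log10 q of 2.47. It was the only marker of other cell types of muscle with a member, of 4 named. Flt1, Flt4 and Fgfr3, also growth factor receptors, had folds of 3.09 to 3.38. Atg7, the E1-like enzyme of autophagy, had 3 members in replicate 1 at 6 months with folds of 3.24 to 4.16. Of glutamate receptor genes, Grin2a had members in both mice of 6 months with folds of 3.96 and 3.70, and Grin2b and Grm3 had 1 each. Of calcium and calcineurin genes, Camk2b and Ppp3cb had 1 each, with folds of 3.36 and 3.64. Myogenic and Notch genes had 93 named regions, energy-sensing genes 97 and muscle contraction genes 3, and 0 of these were members. The shares of named regions that were members were 2.76% for growth factor receptors, 1.79% for glutamate receptors, 3.61% for autophagy and 3.39% for calcium genes. All autosomal regions had 3.98%, and with so few members in each list nothing is read from these counts.

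Genes named for members of more than 1 mouse numbered 13. Besides Smad4, Fzd1, Nfkb1, Ins1, Igf1r and Grin2a they were Pak1, a kinase of the cytoskeleton, Grk2, a kinase of G-protein-coupled receptors, the transcription factor Foxp2, the cation channel Trpv4, the ephrin receptors Epha5 and Epha7, and Mapt, which encodes tau. By definition none of them shared a position between mice. Their highest folds lay between 3.78 for Mapt and 4.68 for Pak1, apart from Smad4. Outside the lists, and chosen after its value was seen, Arrb1, which encodes β-arrestin 1, had a member in replicate 2 at 6 months with 9 fragments and a fold of 6.12.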

How the data were processed

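TRα ChIP-seq peak lists of 6 mouse gastrocnemius samples were used. The members and gene lists were chosen with earlier results of these data known. MACS2 2.1.1.20160309, SAMtools 1.3.1, Trimmomatic 0.36 and HOMER are listed per the submitters' processing notes, with the builds GRCm39 and mm10. Scaffolds were named as in GRCm39, which was taken as the build. The aligner is not given in the sources used here. Peaks were called for each mouse against its own input, per the peak names in the deposited tables.

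The deposited pileup is a signal, the fragments stacked at the summit. The deposited fold is the authors' ratio of pileup to local background, both with 1 added. The deposited p and q are −log10 values of single peaks, for which p stayed below 0.01 and q had no limit. Read totals were not used here. The lowest background per list stands in for depth, and at a pileup of 7 counting error is large.

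Background was recovered as (pileup + 1) / fold − 1. Ages were compared by Pearson's r and Spearman's rho over the 90 assignments of ages to mice. Members were compared with shallow or recurrent deep regions within mice by exact sign-flip permutation over 64 patterns, with Benjamini-Hochberg adjustment over 3 age measures and over 5 paired measures. Pairing by replicate number was checked on members only, over 256 windows of 10 Mb. Python 3.11.15, numpy 2.4.6, pandas 2.3.3 and scipy 1.17.1 were used, and the tests were checked on simulated data. Gene symbols came from protein accessions in the annotation text, through a RefSeq table of GRCm38.p6 used for names only. Named were the highest-fold member of each mouse, the regions beside the background limit, genes of 14 lists (up to 30 by fold) and genes with members in 2 or more mice. Alternatives varied the pileup minimum, background limit, q limit, merging distance and mice. No genome of this build was used, so sequences were not analysed here.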

Additional observations from a re-analysis of the deposited data

Results flagged for a closer look

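The share of members with annotation text, set against the comparison regions of the same mouse, had opposite signs in every mouse of 6 months and every mouse of the later ages. The differences between ages were not tested. Against shallow regions, members had more text by 0.196 percentage points on average at 6 months, and their difference was -0.370 at 15 months and -0.325 at 21 months. The gap between the ages was 0.566 points for 6 against 15 months and 0.521 points for 6 against 21 months. Against recurrent deep regions the means were 0.433, -0.440 and -0.525 at the 3 ages, with gaps of 0.873 and 0.958 points. Each age has 2 mice, and the whole comparison rests on 140 members with text. Of these, 93 came from replicate 1 at 6 months and only 7 to 13 from each other mouse. In replicate 1 at 6 months the difference from shallow regions was 0.0438 points.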

How the results depend on the processing

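The number of members depended on the pileup, q and merging limits, and moved by less than 1.5 times with the background limit. It was 60442 at a pileup minimum of 6, 5306 at 8 and 675 at 10, 7721 with a minimum scaled to the lowest background, 5004 at q of at most 0.05, 310 at −log10 q of at least 5, and 12230 with peaks merged up to 1 kb apart. Leaving out 1 mouse gave 7734 to 18494, the lowest without replicate 1 at 6 months. No test passed an adjusted 0.05 under any setting run, with a lowest adjusted p of 0.0521 by exact sign-flip permutation. The r of member number, of their share of single-list regions and of their share of deep regions with age turned to 0.63, 0.39 and 0.19 under a q limit of 0.05, and to 0.14, 0.32 and 0.0255 under a −log10 q limit of 5. The third turned to 0.0858 with the scaled minimum. Without replicate 1 at 6 months the 3 values were 0.54, 0.12 and 0.48, and leaving out each mouse gave ranges of -0.86 to 0.54, -0.89 to 0.12 and -0.83 to 0.48. The text difference turned to 0.0440 against shallow and 0.110 against recurrent regions at a minimum of 6, and to 0.0730 against recurrent regions with merging up to 1 kb. The summit offset difference turned to 6.13 at a minimum of 10 and 10.3 under the −log10 q limit, and nearness to another mouse's peak to -1.19 at the latter. The cause was not tested. Nearness to another mouse's peak was 4.17 points at a background limit of 1.5 times and 9.08 points at 3 times. Leaving out each mouse gave 4.39 to 6.64 points for nearness to another mouse, 1.24 to 2.42 for spacing within a mouse, -4.31 to -3.67 for the offset, and -0.230 to -0.110 and -0.348 to -0.0540 for text against shallow and recurrent regions. Settings chosen after seeing the data gave 3.99 points for summit-to-summit distance and 4.10, 6.12 and 2.59 points for gaps up to 500 bp, 2 kb and 5 kb. Nearness within 1 kb gives no value once peaks up to 1 kb apart are merged, and the planned sequence measures were not run without a genome of this build.

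The check of pairing by replicate number used members only, with correlations of deviations over windows of -0.06, 0.06 and -0.10 between ages. Members are by rule absent from every other list, so this check cannot show whether replicate numbers pair the mice. With the replicate number as a block, r with age was -0.61, -0.53 and -0.29 for the 3 age measures (lowest exact permutation p = 0.361 over 36 assignments, adjusted 0.583). A member at the pileup minimum rests on 7 fragments, so a mouse whose list lacks the region may still bind TRα there.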
